A study of Arabidopsis thaliana with 12 samples.

Results

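Nuclear genes of photosynthesis were followed in roots of Arabidopsis thaliana in which the transcription factor PLT5 was switched on. The set holds 46 genes, out of 34262 loci counted, chosen by function and listed by locus identifier: 4 genes of the Rubisco small subunit, 4 of the photosystem I antenna, 13 of the photosystem II antenna, 10 subunits of photosystem I, 6 of photosystem II, 2 plastocyanins, 5 Calvin cycle genes and the transcription factors GLK1 and GLK2. All plants carried 35S:XVE>>PLT5-TagRFP. In it XVE, a regulator activated by estradiol and expressed from the broadly active 35S promoter, drives PLT5 joined to a red fluorescent protein. Mock plants received DMSO and induced plants the agent that the labels call EST, for 8 h or 24 h, and each of these 4 groups had 3 biological replicates. A sample pooled root pieces of 1.5 cm from 15 plants, cut just under the hypocotyl, without visible lateral roots. Plant age is not given in the sources used here, and the samples include no plants without the construct. P-values measure the spread between these pools.

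The light-harvesting proteins LHCA and LHCB bind chlorophyll and pass light energy to photosystems I and II, which drive electrons along the thylakoid membrane with plastocyanin as a soluble carrier. The Calvin cycle then fixes carbon dioxide through Rubisco, whose small subunit is encoded in the nucleus. Root plastids are mostly colourless, but roots grown in light can green, and the factors GLK1 and GLK2 are known to activate genes of light harvesting and chlorophyll synthesis.

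Library totals lay between 34958324 and 41447647 counts, and all 46 genes passed the filter on low counts that left 21439 genes for testing. PLT5, counted with native gene and transgene together, rose from 13.27 ± 1.49 to 2467 ± 143 CPM (counts scaled to the library size, SD, n = 3) at 8 h and from 14.11 ± 2.78 to 2795 ± 123 CPM at 24 h. In CPM summed over the 46 genes, induced 8 h replicate 3 stood at 8131 against 9883 and 9767 in its group. Mock 24 h replicate 3 stood at 7361 against 8949 and 9685. Counts of genes called that rest on these libraries are given with and without them.

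The genes spanned a wide range of levels in mock roots. Per kilobase of exon, mean levels at 8 h ran from 0.228 CPM per kb for GLK1 to 1150 CPM per kb for LHCB1.3. RBCS1A followed at 595 and LHCB1.5 at 585 CPM per kb. Within the families of close copies a few genes gave most of the counts. RBCS1A made up 91.6% ± 1.0 of the small subunit counts in mock 8 h roots, LHCB1.3 66.9% ± 1.8 of the LHCB1 counts, LHCB2.1 56.5% ± 0.40 of the LHCB2 counts and PETE2 87.3% ± 1.3 of the plastocyanin counts (SD, n = 3).

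Whether the genes changed with time alone was asked in the mock roots. Between mock roots at 24 h and 8 h, 0 of the 46 genes were called in either direction at an adjusted p under 0.05 by edgeR's quasi-likelihood test with Benjamini-Hochberg adjustment, against 0.490% of all genes called higher and 0.173% called lower. DESeq2 also called 0, and 3 of the 46 genes were higher and 0 lower at an unadjusted p under 0.05. The log2 fold changes of the 46 genes ran from -0.49 to 0.46.

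At 24 h after induction most photosynthesis genes fell, and some copies of gene families were nearly lost. Of the 46 genes, 36 fell (78.3%, against 34.0% of all genes tested) and 2 rose, PETE2 and the Calvin cycle gene SBPASE (4.35%, against 38.3%). Their log2 fold changes ran from -4.53 to 0.39 with a median of -0.54, beside a median of 0.06 over all genes. Of the 46 genes, 11 fell by at least 1 on the log2 scale, against 18.4% of all genes tested. Falls of this size were thus not much more common in the set than among all genes. All 3 induced libraries lay below all 3 mock libraries for 33 genes (34.9% of all genes) and above them for 2 (40.4%). Without mock 24 h replicate 3, 39 genes fell and 2 rose (the shares of all genes under this setting are not given here).

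At 8 h the set was split between rises and falls. Of the 46 genes, 12 rose (26.1%, against 22.3% of all genes) and 7 fell (15.2%, against 23.1%), and the share that rose was close to the background. The log2 fold changes ran from -1.86 to 0.71 with a median of 0.1, beside 0.02 over all genes. The 12 that rose were RBCS1A, RBCS3B, LHCA3, LHCB2.1, LHCB2.2, PSBQ-2, PSBR, PETE2, RCA, GAPA, GAPB and SBPASE. The 7 that fell were RBCS1B, RBCS2B, LHCB1.4, LHCB2.3, PSAH-2, PETE1 and GLK2, and all 7 also fell at 24 h. Without induced 8 h replicate 3, 21 genes rose and 5 fell, and without mock 8 h replicate 3, 10 rose and 4 fell. With total library size as the only scaling, 20 rose and 6 fell, and the median of all genes moved from 0.02 to 0.116. The shares of all genes called under these settings are not given here, so these counts are not set against a background. The induced libraries lay above all mock libraries for 14 genes (28.2% of all genes) and below them for 8 (26.9%). The comparisons at 8 h and 24 h share no library.

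**Figure D1:**
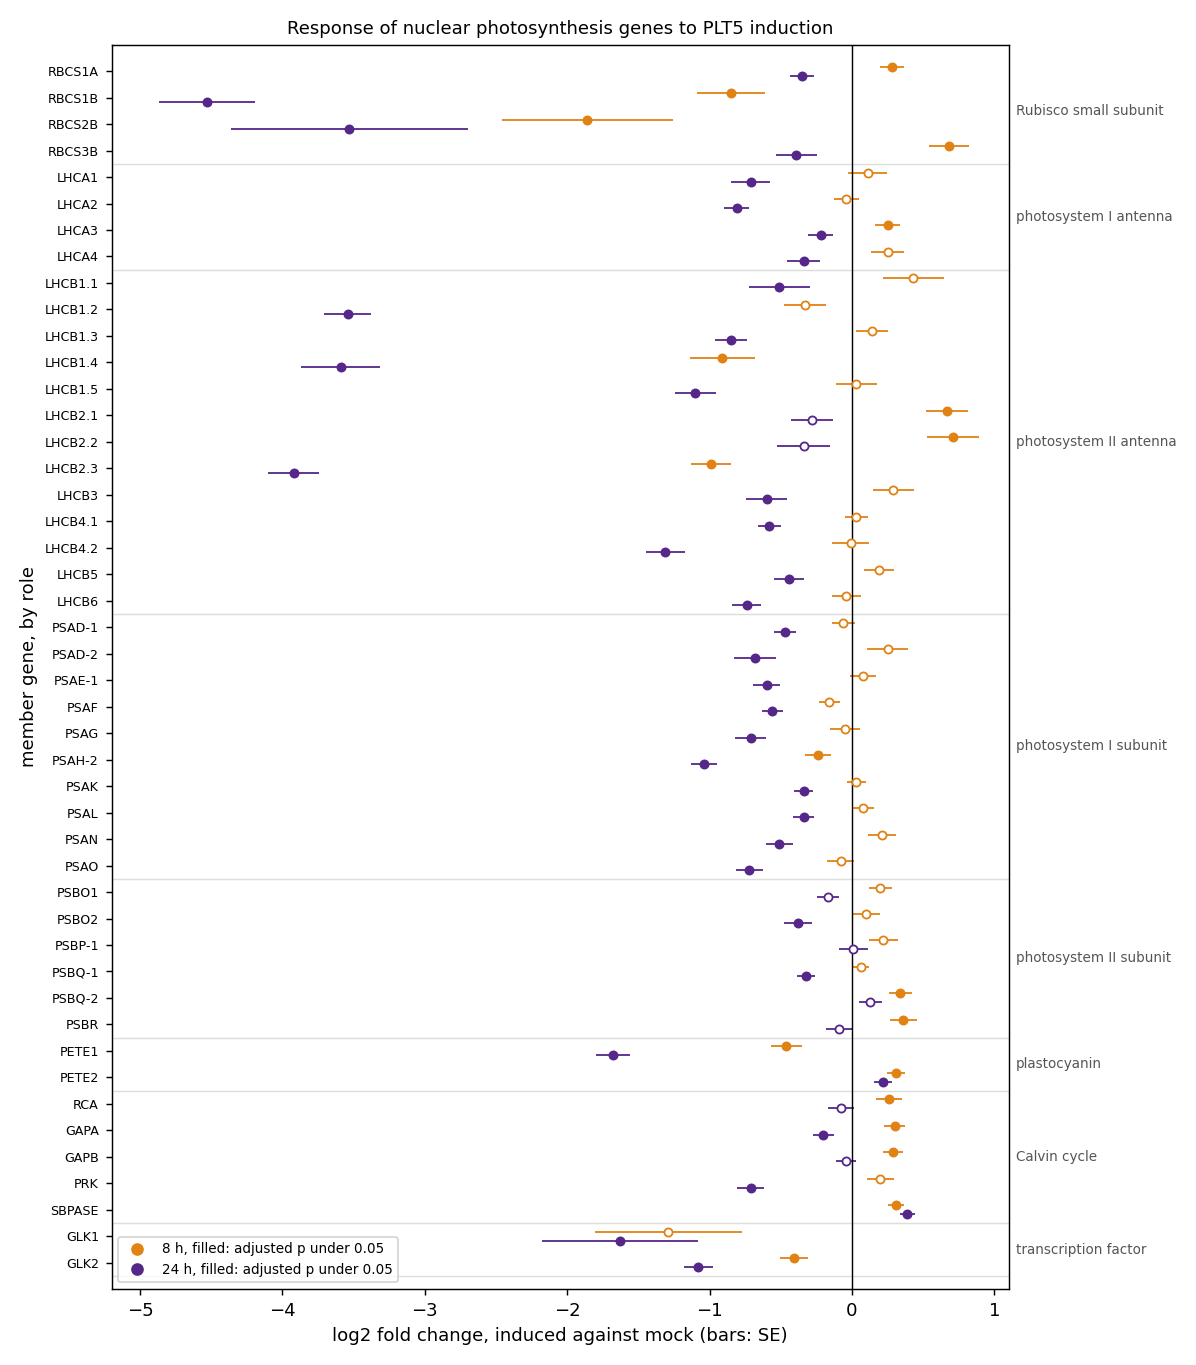
Log2 fold change of each of the 46 genes, induced against mock, at 8 h (orange) and 24 h (purple), with genes on the vertical axis grouped by role; bars are SE and filled points have an edgeR adjusted p under 0.05. At 24 h nearly all points lie left of 0, and RBCS1B (-4.53), LHCB2.3 (-3.92), LHCB1.4 (-3.59), LHCB1.2 (-3.54) and RBCS2B (-3.53) stand far from the other genes of their families.

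Copies of the Rubisco small subunit gene differed in response. All 4 fell at 24 h, RBCS1B and RBCS2B strongly and RBCS1A and RBCS3B mildly. At 8 h RBCS1A and RBCS3B had risen while RBCS1B and RBCS2B had already fallen, and of these 4 calls at 8 h the one of RBCS3B held under all 13 other settings. RBCS1B, RBCS2B and RBCS3B lie next to each other on chromosome 5 (15376988 to 15385320, minus strand, TAIR10), and RBCS1A lies on chromosome 1 (25048158 to 25049667, minus strand). Their upstream sequences are shown because they differ at a known light-response element: the 30 bases below lie before the start codon and were read from the RefSeq genome TAIR10.1 on the coding strand, 5′ to 3′. Capitals mark the G-box (CACGTG) and the I-box (GATAAG, here in part on the other strand as CTTATC).
RBCS1A: ttatcttcCACGTGgcattattccagcggt
RBCS2B: ttttctgcCACGTGatCTTATCctagtggt
RBCS3B: ttttctgcCACGTGgcCTTATCctagtggt
RBCS1B: aaaagaaaGATAAGATAAGggtgtcaacac
The printed stretches begin 267, 224, 225 and 178 bases before the start codon, in that order. RBCS1A, RBCS2B and RBCS3B each held 1 G-box in the 500 bases before the start codon, and RBCS1B held none there. All 4 copies held I-boxes in these 500 bases: 2 in RBCS1A, outside the printed stretch, 3 in RBCS2B, 3 in RBCS3B and 2, overlapping, in RBCS1B.

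RBCS1B (AT5G38430) counted 253, 291 and 257 reads in the mock and 6, 16 and 16 in the induced libraries at 24 h. These were 7.06 ± 0.288 CPM in mock against 0.303 ± 0.139 CPM in induced roots (SD, n = 3), a log2 fold change of -4.53 (SE 0.34, edgeR adjusted p = 1.26e-07), which left 4.34% of the mock level. At 8 h it stood at 6.57, 5.76 and 11.3 CPM in mock against 3.68, 4.19 and 5.26 CPM in induced libraries. The groups did not overlap at either time. The fall at 8 h (log2 fold change -0.85, SE 0.241, edgeR adjusted p = 0.0124) became -0.50 with an adjusted p of 0.0624 without mock 8 h replicate 3, the highest library (0.00205 to 0.0624 over all other settings).

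RBCS2B (AT5G38420) was scarce throughout. It had 5, 12 and 18 counts in mock and 1, 2 and 0 in induced libraries at 24 h, a ratio of 0.0775 between 3 and 35 summed counts after scaling by library size (95% counting interval 0.0153 to 0.246, counting error only). At 8 h it had 11, 16 and 21 counts in mock against 3, 9 and 2 in induced libraries (log2 fold change -1.86, SE 0.601, edgeR adjusted p = 0.0241), and leaving out either of 2 mock or 2 induced libraries ended that call (adjusted p up to 0.084).

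RBCS1A (AT1G67090), the main copy, stood at 784, 807 and 670 CPM in mock and at 542, 622 and 605 CPM in induced libraries at 24 h. All induced values lay below the mock values, with a log2 fold change of -0.35 (SE 0.0825, edgeR adjusted p = 0.00193). At 8 h the order was the opposite, with 741, 749 and 772 CPM in mock against 943, 980 and 830 CPM in induced libraries (log2 fold change 0.28, SE 0.0825, edgeR adjusted p = 0.0146; 0.0577 and 0.064 without induced replicate 1 or 2, and down to 0.00257 over other settings). RBCS3B (AT5G38410) rose at 8 h from 61.5 ± 8.02 to 98.7 ± 14.4 CPM and fell at 24 h from 53.8 ± 9.65 to 40.9 ± 3.46 CPM. Its 24 h groups overlapped, and its adjusted p of 0.0234 was up to 0.128 under other settings.

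The share of each copy in the summed small subunit counts does not depend on the scaling between libraries. RBCS1B took 0.793%, 0.833% and 0.993% of them in mock and 0.0247%, 0.0575% and 0.0593% in induced roots at 24 h. RBCS1A took 92.5% ± 0.43 and 93.5% ± 0.17, and RBCS3B 6.56% ± 0.56 and 6.49% ± 0.16 (SD, n = 3). For RBCS1B an exact two-sided permutation test gave p = 0.1, the smallest that 3 against 3 libraries allow. The coding sequence of RBCS1B is 97.3% identical to that of RBCS2B and 96.7% to that of RBCS3B, and 9.8% of its spliced stretches of 50 bases also occur in RBCS3B, so reads can be assigned to the wrong copy.

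The main light-harvesting proteins of photosystem II, LHCB1 and LHCB2, form the trimers of its outer antenna and are each encoded by several genes. At 24 h LHCB1.2, LHCB1.4 and LHCB2.3 fell to 8.57%, 8.33% and 6.60% of their mock level, while LHCB1.3, LHCB2.1 and LHCB2.2 stood at 55.7%, 82.3% and 79.2% of theirs. LHCB1.2 (AT1G29910, chromosome 1, 10472280 to 10473502, minus strand) stood at 108, 121 and 78.7 CPM in mock and at 7.86, 9.88 and 8.66 CPM in induced roots. This was a log2 fold change of -3.54 (SE 0.165, edgeR adjusted p = 1.75e-09). At 8 h its libraries overlapped between groups, at 81.9 ± 9.14 CPM in mock against 65.1 ± 7.73 CPM in induced roots (edgeR adjusted p = 0.0812; 0.0165 to 0.236 over other settings). Of the 5 genes that fell by 3.5 or more at 24 h, LHCB1.2 was thus the one with no call at 8 h.

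LHCB1.3 (AT1G29930), which lies near it on chromosome 1 with LHCB1.1 in between and is the most abundant of the 46 genes, stood at 1458, 1685 and 1183 CPM in mock against 804, 824 and 780 CPM in induced roots at 24 h (log2 fold change -0.85, SE 0.113, edgeR adjusted p = 2.32e-05). LHCB1.5 (AT2G34420) fell from 717 ± 142 to 334 ± 23 CPM, and the rarer LHCB1.1 (AT1G29920) from 9.88 ± 1.97 to 6.97 ± 0.68 CPM with overlapping groups and a call lost under 6 of 13 other settings. LHCB1.4 (AT2G34430) had 95, 158 and 90 counts in mock and 10, 12 and 9 in induced libraries at 24 h, a log2 fold change of -3.59 (SE 0.278, edgeR adjusted p = 1.69e-07). It had fallen at 8 h too, from 2.46 ± 0.327 to 1.31 ± 0.282 CPM. Within the LHCB1 counts the share of LHCB1.2 went from 4.5% ± 0.17 in mock to 0.763% ± 0.075 in induced roots at 24 h, and that of LHCB1.3 from 63.5% ± 1.2 to 69.7% ± 0.89 (exact permutation p = 0.1 for both, the smallest possible). Of its spliced stretches of 50 bases, LHCB1.1 shares 13.9% with LHCB1.3, and LHCB1.4 shares 13.6% with LHCB1.5. Reads of these abundant copies can thus be assigned to the rarer ones.

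Among the 3 LHCB2 genes only LHCB2.3 passed the test at 24 h. LHCB2.3 (AT3G27690, chromosome 3, 10255906 to 10257489, plus strand) counted 351, 405 and 307 reads in mock and 17, 31 and 29 in induced libraries, a log2 fold change of -3.92 (SE 0.18, edgeR adjusted p = 1.54e-09). Its fall was already called at 8 h, from 8.28, 10.4 and 9.99 CPM in mock to 5.39, 4.60 and 4.49 CPM in induced roots (log2 fold change -0.99, SE 0.14, edgeR adjusted p = 0.000133). No induced library reached a mock library at either time. LHCB2.1 (AT2G05100) went the other way at 8 h, from 54.9 ± 4.48 to 87.6 ± 15.6 CPM (log2 fold change 0.67, SE 0.148, edgeR adjusted p = 0.00284), and LHCB2.2 (AT2G05070) from 32.7 ± 4.44 to 53.4 ± 12.3 CPM (log2 fold change 0.71, SE 0.184, edgeR adjusted p = 0.00781).

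At 24 h LHCB2.1 stood at 81.8, 80.8 and 56.2 CPM in mock against 63.7, 60.8 and 55.6 CPM in induced roots, and it missed the test (log2 fold change -0.28, SE 0.147, edgeR adjusted p = 0.103). Without mock 24 h replicate 3 its log2 fold change was -0.44 with an adjusted p of 0.00839, in a range of 0.00839 to 0.4 over other settings. LHCB2.2 stood at 43.6 ± 10.2 and 34.5 ± 1.07 CPM (edgeR adjusted p = 0.117). LHCB2.3 made up 7.57% ± 1.2 of the LHCB2 counts in mock and 0.651% ± 0.21 in induced roots at 24 h. LHCB2.1 and LHCB2.2 share 22.7% and 28.2% of their stretches of 50 bases with each other, and LHCB2.3 shares 0.0% with either.

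LHCB2.3 overlaps the antisense gene AT3G27700 over 595 bases. That neighbour is far more abundant and rose slightly, from 38.81 ± 1.22 to 43.59 ± 1.39 CPM at 24 h, while LHCB2.3 fell. In all, 17 of the 46 genes overlap another locus, and the library kit marks strand, but the strand setting of the counting is not given in the sources used here.

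Upstream sequences of the contrasting antenna pairs are shown because the copies differ in response while their proteins are close. Each is the 250 bases before the outermost annotated transcript start, 5′ to 3′ on the coding strand, from the RefSeq genome TAIR10.1; capitals mark a G-box (CACGTG) or the element CCAATC that is enriched near genes bound by GLK factors. LHCB1.2 covers chromosome 1 from 10473503 to 10473752 (minus strand), LHCB1.3 chromosome 1 from 10477635 to 10477884 (plus strand), LHCB2.2 chromosome 2 from 1800473 to 1800722 (minus strand) and LHCB2.3 chromosome 3 from 10255656 to 10255905 (plus strand).
LHCB1.2: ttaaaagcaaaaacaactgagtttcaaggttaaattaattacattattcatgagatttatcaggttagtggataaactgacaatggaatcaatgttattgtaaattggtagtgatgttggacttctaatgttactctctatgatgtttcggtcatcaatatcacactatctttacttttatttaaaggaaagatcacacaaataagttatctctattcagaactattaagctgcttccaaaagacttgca
LHCB1.3: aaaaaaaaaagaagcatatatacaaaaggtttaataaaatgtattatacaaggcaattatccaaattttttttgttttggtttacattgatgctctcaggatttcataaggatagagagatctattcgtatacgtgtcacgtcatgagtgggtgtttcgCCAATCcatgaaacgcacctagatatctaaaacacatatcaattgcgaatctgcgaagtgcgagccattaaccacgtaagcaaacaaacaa
LHCB2.2: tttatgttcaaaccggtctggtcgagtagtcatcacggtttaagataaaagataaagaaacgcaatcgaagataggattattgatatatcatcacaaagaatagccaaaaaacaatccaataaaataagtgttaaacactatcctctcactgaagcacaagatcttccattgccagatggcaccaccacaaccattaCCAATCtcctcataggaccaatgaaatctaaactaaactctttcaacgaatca
LHCB2.3: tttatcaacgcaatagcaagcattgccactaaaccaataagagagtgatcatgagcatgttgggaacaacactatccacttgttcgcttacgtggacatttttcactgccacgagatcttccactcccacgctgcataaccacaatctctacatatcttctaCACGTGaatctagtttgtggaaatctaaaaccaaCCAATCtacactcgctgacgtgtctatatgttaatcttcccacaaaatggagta
In this window the strongly falling LHCB1.2 had none of the 3 elements searched (G-box, I-box and CCAATC, on both strands), and LHCB1.3 had 1 CCAATC. The strongly falling LHCB2.3 had 1 G-box and 1 CCAATC, and LHCB2.2 had 1 CCAATC.

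**Figure D2:**
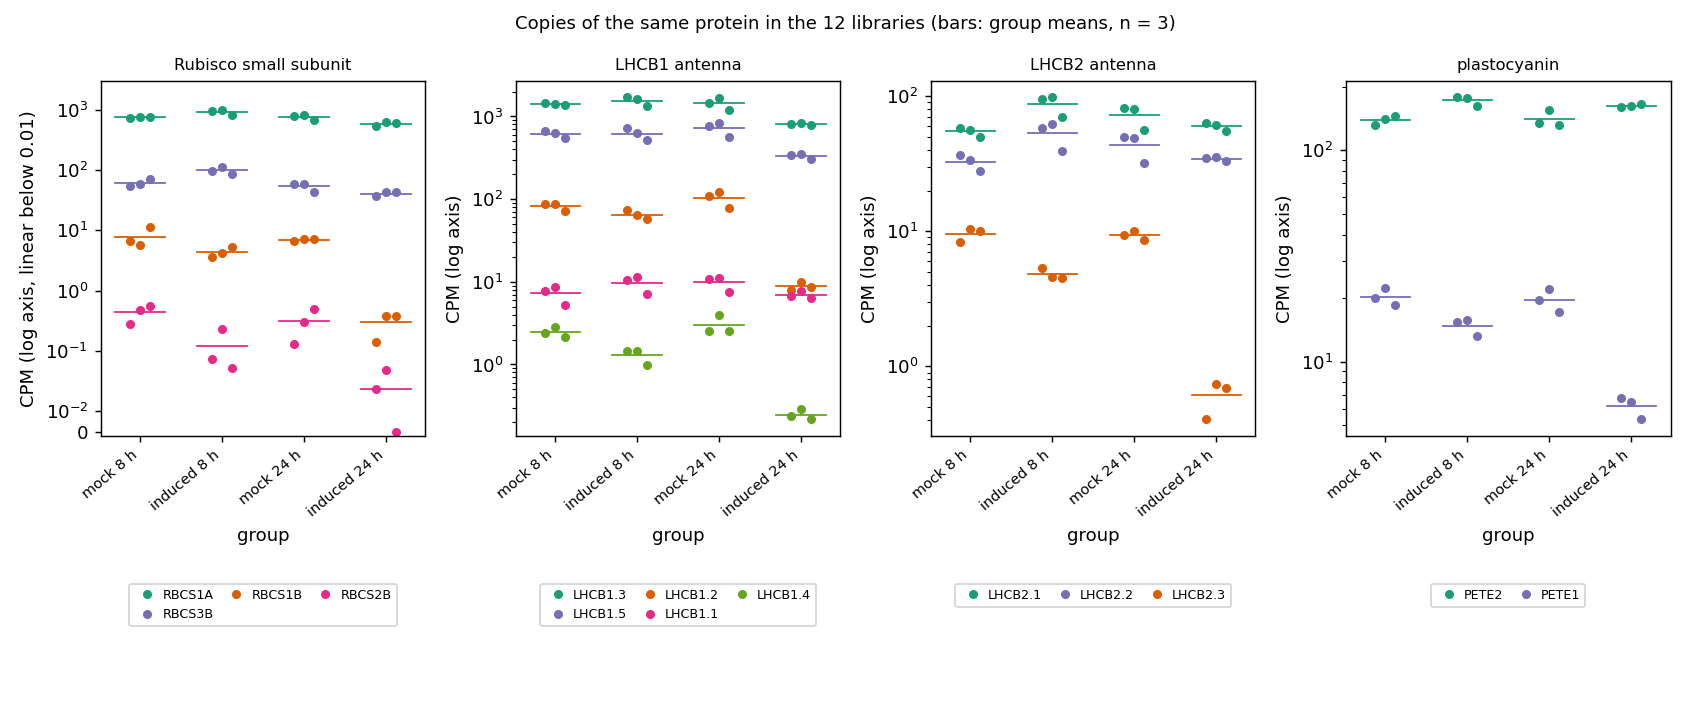
CPM of each copy in each of the 12 libraries (points, replicates 1 to 3 from left) with the group mean as a bar, on log axes (linear below 0.01 in the Rubisco panel). RBCS1B, RBCS2B, LHCB1.2, LHCB1.4, LHCB2.3 and PETE1 drop in the induced 24 h libraries, while RBCS1A, LHCB1.3, LHCB2.1 and PETE2 show far smaller shifts.

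The remaining antenna genes fell more evenly. LHCB3, the third protein of the outer trimers, and LHCB4, LHCB5 and LHCB6, the linkers between trimers and reaction centre, all fell at 24 h and none was called at 8 h. LHCB4.2 (AT3G08940) fell most, from 109, 120 and 78.3 CPM in mock to 38.8, 43.0 and 41.8 CPM in induced roots (log2 fold change -1.31, SE 0.134, edgeR adjusted p = 2.18e-06), while its copy LHCB4.1 (AT5G01530) fell by 0.58. The share of LHCB4.2 in their summed counts went from 27.8% ± 2.3 to 19% ± 1.3. LHCB3 fell by 0.60, LHCB5 by 0.44 and LHCB6 by 0.74 on the log2 scale. The 4 photosystem I antenna genes fell as well, LHCA1 by 0.71 and LHCA2 by 0.81, and LHCA3 and LHCA4 by 0.22 and 0.34. LHCA2 stood at 307, 321 and 250 CPM in mock against 165, 164 and 171 CPM in induced roots, without overlap. The calls of LHCA3 and LHCA4 were lost under 6 and 3 of 13 other settings, and the rise of LHCA3 at 8 h under 7.

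All 10 photosystem I subunits fell at 24 h (34.0% of all genes fell), by 0.34 to 1.04 on the log2 scale, and in all 10 the induced libraries lay below the mock libraries. PSAH-2 (AT1G52230), a docking subunit for the mobile antenna, fell most, from 61.1, 56.7 and 48.8 CPM to 27.1, 28.6 and 25.5 CPM (log2 fold change -1.04, SE 0.0921, edgeR adjusted p = 5.98e-07). PSAD-1, PSAD-2 and PSAE-1 of the ferredoxin-docking side fell by 0.47, 0.68 and 0.60, and PSAF and PSAN of the plastocyanin side by 0.56 and 0.51. PSAG, PSAO, PSAK and PSAL, small subunits next to the antenna, fell by 0.71, 0.72, 0.34 and 0.34. At 8 h 1 of the 10 was called: PSAH-2 fell by 0.24 (edgeR adjusted p = 0.0498), a call lost under 7 of 13 other settings.

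The photosystem II genes of the set encode proteins around the oxygen-evolving complex. At 24 h 2 of 6 fell, near the share of all genes (34.0%), PSBO2 by 0.38 and PSBQ-1 by 0.32 on the log2 scale, and none rose. PSBP-1 stood at 248 ± 29.3 CPM in mock against 250 ± 16.6 CPM in induced roots (SD, n = 3; log2 fold change 0.01, SE 0.102, edgeR adjusted p = 0.951). PSBR stood at 302, 326 and 248 CPM in mock against 269, 278 and 280 CPM in induced roots, with overlapping groups (edgeR adjusted p = 0.43). PSBO1 had a log2 fold change of -0.17 (edgeR adjusted p = 0.0642) and was called lower under 5 of 13 other settings. At 8 h PSBQ-2 rose from 76.5 ± 4.52 to 96.6 ± 9.86 CPM and PSBR from 306 ± 15.9 to 393 ± 40.5 CPM. The copies PSBQ-1 and PSBQ-2 shifted against each other, PSBQ-1 taking 50.5% ± 0.61 of their counts in mock and 42.8% ± 0.84 in induced roots at 24 h.

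The plastocyanin genes moved in opposite directions at both times. PETE1 (AT1G76100, chromosome 1, 28553883 to 28554930, minus strand) stood at 19.7, 22.2 and 17.3 CPM in mock against 6.74, 6.42 and 5.34 CPM in induced roots at 24 h (log2 fold change -1.68, SE 0.119, edgeR adjusted p = 7.37e-08). PETE2 (AT1G20340, chromosome 1, 7042046 to 7043392, minus strand), the major copy, stood at 135, 155 and 131 CPM in mock against 161, 162 and 166 CPM in induced roots (log2 fold change 0.22, SE 0.0647, edgeR adjusted p = 0.00956). In neither gene did the groups overlap. At 8 h PETE1 fell by 0.46 and PETE2 rose by 0.31 on the log2 scale. The share of PETE1 in the plastocyanin counts was 12.8%, 12.6% and 11.6% in mock and 4.03%, 3.82% and 3.12% in induced roots at 24 h. Their coding sequences are 74.6% identical and share no stretch of 50 bases. The 250 bases before the outermost transcript start, shown because this pair diverges without shared reads, lie on chromosome 1 from 28554931 to 28555180 for PETE1 and from 7043393 to 7043642 for PETE2, both on the minus strand (TAIR10.1). Capitals mark an I-box (CTTATC on this strand) and CCAATC.
PETE1: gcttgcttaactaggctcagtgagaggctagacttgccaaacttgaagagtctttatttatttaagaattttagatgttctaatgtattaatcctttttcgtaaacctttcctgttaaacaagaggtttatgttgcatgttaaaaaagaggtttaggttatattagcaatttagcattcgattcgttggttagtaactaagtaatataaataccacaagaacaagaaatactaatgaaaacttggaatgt
PETE2: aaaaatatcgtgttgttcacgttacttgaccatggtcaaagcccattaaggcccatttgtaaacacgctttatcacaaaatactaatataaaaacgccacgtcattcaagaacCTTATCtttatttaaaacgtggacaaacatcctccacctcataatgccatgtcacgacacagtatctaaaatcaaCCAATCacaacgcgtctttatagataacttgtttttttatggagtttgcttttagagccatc
PETE2 held 1 I-box and 1 CCAATC in this window, and PETE1 held none of the 3 elements. In the longer window before the start codon, read above for the Rubisco copies, PETE1 held 1 I-box and 2 CCAATC. PETE2 held 2 I-boxes and 1 CCAATC there. The absence of I-box and CCAATC from PETE1 thus holds only for the window before the transcript start.

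Of the 5 Calvin cycle genes 4 rose at 8 h (22.3% of all genes rose). At 24 h 2 fell (34.0% of all genes fell) and 1 rose (38.3% of all genes rose). Those called higher at 8 h were RCA, which encodes Rubisco activase, by 0.26, GAPA and GAPB, the subunits of the plastid glyceraldehyde phosphate dehydrogenase, by 0.30 and 0.29, and SBPASE, which encodes sedoheptulose bisphosphatase, by 0.31 on the log2 scale. PRK missed the test at 8 h. The call of RCA was lost under 6 of 13 other settings. SBPASE (AT3G55800) rose at both times, at 24 h from 51.8, 52.2 and 52.0 CPM in mock to 69.8, 69.4 and 65.8 CPM in induced roots (log2 fold change 0.39, SE 0.0553, edgeR adjusted p = 3.54e-05). PRK (AT1G32060), which encodes phosphoribulokinase, fell at 24 h from 90.9, 103 and 79.5 CPM to 53.0, 58.0 and 55.8 CPM (log2 fold change -0.71, SE 0.094, edgeR adjusted p = 2.05e-05). GAPA fell by 0.20 at 24 h, a call lost under 5 of 13 other settings, and GAPB (130.8 ± 8.96 against 126.9 ± 2.32 CPM) and RCA (103 ± 10.8 against 97.8 ± 2.91 CPM) missed the test. The 5 genes thus rose, fell or missed the test at 24 h. The share that fell was near that of all genes, and the mix is not read as a trait of the pathway.

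Both GLK genes fell at 24 h, and GLK2 had fallen at 8 h. GLK2 (AT5G44190, chromosome 5, 17798262 to 17800926, plus strand) stood at 10.68, 11.84 and 12.99 CPM in mock against 9.16, 8.77 and 8.71 CPM in induced roots at 8 h (log2 fold change -0.41, SE 0.0981, edgeR adjusted p = 0.00452). At 24 h it stood at 10.11, 13.06 and 12.23 CPM in mock against 5.504, 5.586 and 5.65 CPM in induced roots (log2 fold change -1.08, SE 0.101, edgeR adjusted p = 9.53e-07). The groups did not overlap at either time. GLK1 (AT2G20570) was near the lower limit of detection, with 12, 15 and 13 counts in mock and 5, 5 and 4 in induced libraries at 24 h (log2 fold change -1.63, SE 0.55, edgeR adjusted p = 0.0177). Without induced 24 h replicate 3 its adjusted p was 0.0518, the highest of a range that began at 0.00222.

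Summed by role, the GLK genes kept 46.8% of their mock level at 24 h, the photosystem II antenna 57.2%, the photosystem I subunits 68.7%, the photosystem I antenna 72.5%, the Rubisco small subunit 77.4%, the Calvin cycle genes 90.2%, the photosystem II subunits 92.5% and plastocyanin 106%. Neighbours in this order were not tested against each other. The 13 photosystem II antenna genes summed to 3761 ± 637 CPM in mock against 2150 ± 85.2 CPM in induced roots at 24 h (SD, n = 3), and the photosystem I antenna to 1310 ± 194 and 949.9 ± 11.4 CPM. The photosystem I subunits summed to 835.6 ± 93.5 and 574 ± 21.1 CPM, and the Rubisco small subunit genes to 814.8 ± 82.4 and 630.9 ± 45.4 CPM. The Calvin cycle genes summed to 626.8 ± 52.5 and 565.3 ± 7.24 CPM, and the GLK genes to 12.15 ± 1.55 and 5.691 ± 0.0625 CPM. The photosystem II subunits (1146 ± 121 and 1060 ± 35.6 CPM) and plastocyanin (159.8 ± 14.9 and 168.9 ± 2.1 CPM) differed by less than the SD of the mock libraries. All 46 genes together summed to 8244 ± 165 CPM in mock against 9260 ± 980 CPM in induced roots at 8 h, and to 8665 ± 1190 and 6105 ± 150 CPM at 24 h. Genes of the plastid genome took 6.50% ± 0.0924 of all counts in mock and 6.15% ± 0.214 in induced roots at 24 h.

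**Figure D3:**
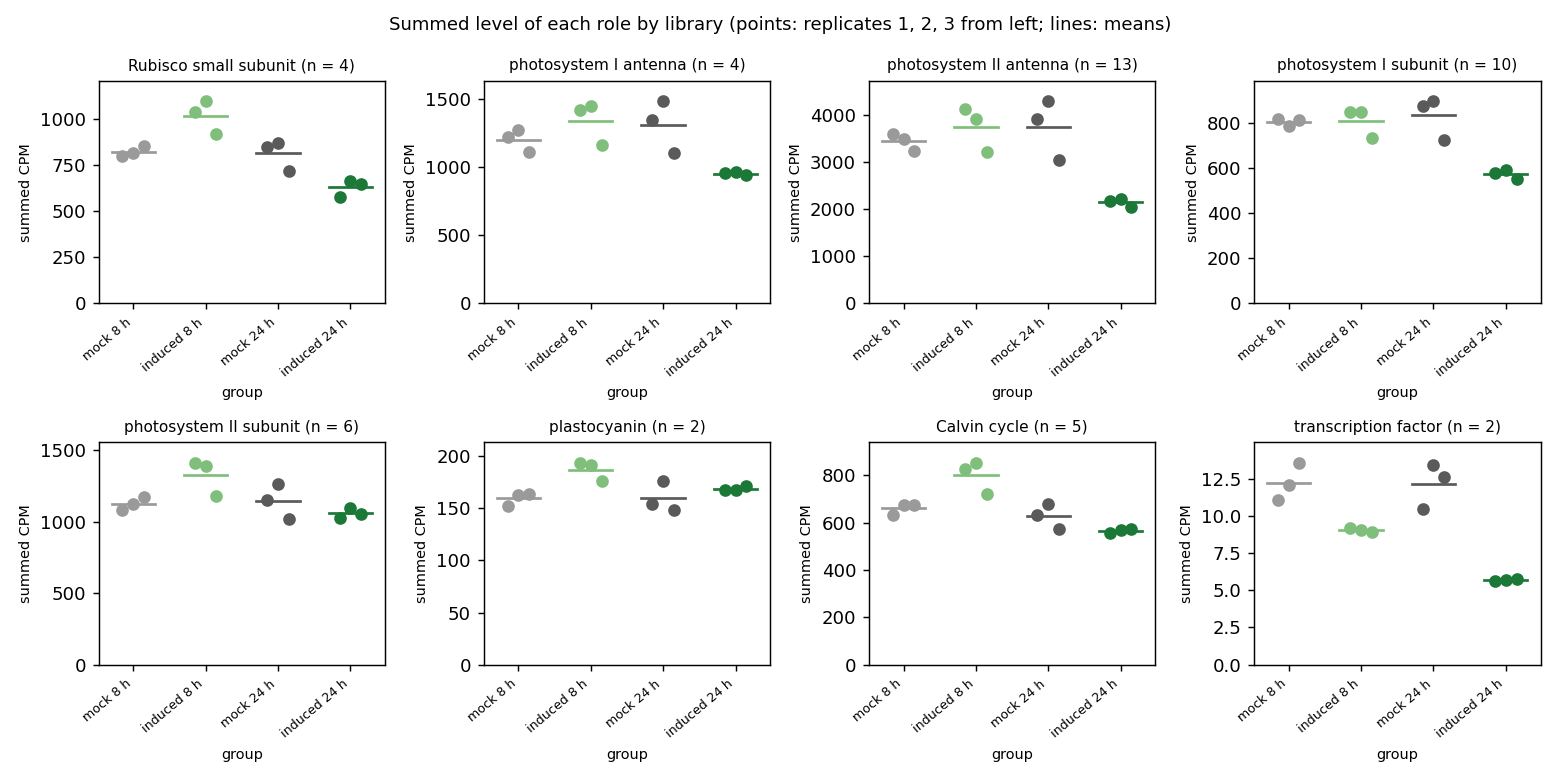
Summed CPM of the genes of each role in each library (points, replicates 1 to 3 from left; lines are group means of 3), with the vertical axes starting at 0. The 3 induced 24 h libraries lie below all other libraries for both antennas, the photosystem I subunits, the Rubisco small subunit and the GLK factors, but not for the photosystem II subunits or plastocyanin.

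Other cell type markers moved with induction as well. In pooled root segments, fewer cells of a type and less RNA per cell cannot be told apart. The 4 markers of suberised periderm (CYP86A1, ASFT, GPAT5, CYP86B1) summed to 689 to 816 CPM in mock and 23.8 to 48.3 CPM in induced libraries at 24 h. At 8 h they summed to 673 to 777 and 398 to 486 CPM. At 24 h the 3 cambium markers (PXY, WOX4, ANT) summed to 447 to 471 and 50.1 to 53.3 CPM, the 3 xylem markers to 208 to 317 and 54.4 to 80.5 CPM and the 2 pericycle markers to 120 to 146 and 15.4 to 21.3 CPM. The 3 phloem markers moved in different directions. SUC2, a sucrose transporter of companion cells, rose from 34.63 ± 5.16 to 179.6 ± 19.7 CPM at 8 h and from 37.69 ± 9.27 to 139.1 ± 11.7 CPM at 24 h. SEOR1, a sieve element protein, fell at 24 h from 182.4 ± 21.7 to 33.17 ± 4.52 CPM, and APL, a phloem transcription factor, from 21.35 ± 1.79 to 8.121 ± 0.722 CPM. Their sum was 208 to 274 CPM in mock and 313 to 361 CPM in induced libraries at 8 h, and 216 to 278 and 172 to 186 CPM at 24 h. Markers of stomata, a cell type of the shoot epidermis, were near 0. The 6 genes summed to 17 to 35 counts (0.434 to 0.876 CPM) in mock libraries of both times. In induced libraries they summed to 3 to 26 counts (0.0731 to 0.621 CPM). No library had more than 1 count of MUTE or 2 of EPF1. Whether green shoot tissue was carried over was not tested. KAT1 had 17, 20 and 18 counts in mock and 0, 0 and 0 in induced libraries at 24 h, while SPCH had 0, 0 and 0 in mock and 9, 22 and 13 in induced libraries. The part of these changes in the result was not tested.

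The responses at the 2 times differed for most of the genes. The 24 h response was lower than the 8 h response for 39 of the 46 genes (84.8%, against 22.6% of all genes tested) and higher for 0 (against 18.2%), with a median difference of -0.66 on the log2 scale beside 0.01 over all genes. DESeq2 gave 40 lower and 0 higher, and at an unadjusted p under 0.05 edgeR gave 40 lower and 0 higher. RBCS1B differed by -3.68 (SE 0.431, edgeR adjusted p = 3.61e-05) and LHCB1.2 by -3.21 (SE 0.216, edgeR adjusted p = 4.34e-07). SBPASE, which rose by 0.31 at 8 h and 0.39 at 24 h, had a difference of 0.08 (SE 0.0782, edgeR adjusted p = 0.441). PETE2 had a difference of -0.09 (SE 0.0915, edgeR adjusted p = 0.452). The 4 genes that rose at 8 h and fell at 24 h were RBCS1A, RBCS3B, LHCA3 and GAPA.

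The strongest falls came from genes of low or middle level. Over the 46 genes Spearman's rho between the level per kb in mock 8 h roots and the log2 fold change at 24 h was 0.3, a description across genes that share libraries and, in part, reads. LHCB1.2, at 66.9 CPM per kb, fell by 3.54, and PSAD-1, at 63.6 CPM per kb, fell by 0.47. LHCB1.1, at 5.5 CPM per kb, fell by 0.51, and RBCS1B, at 4.16 CPM per kb, fell by 4.53. LHCB1.1 shares 13.9% of its stretches of 50 bases with the far more abundant LHCB1.3, so its value may include reads of that copy. Genes of like level thus differed widely in response, with that limit on the second pair.

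**Figure D4:**
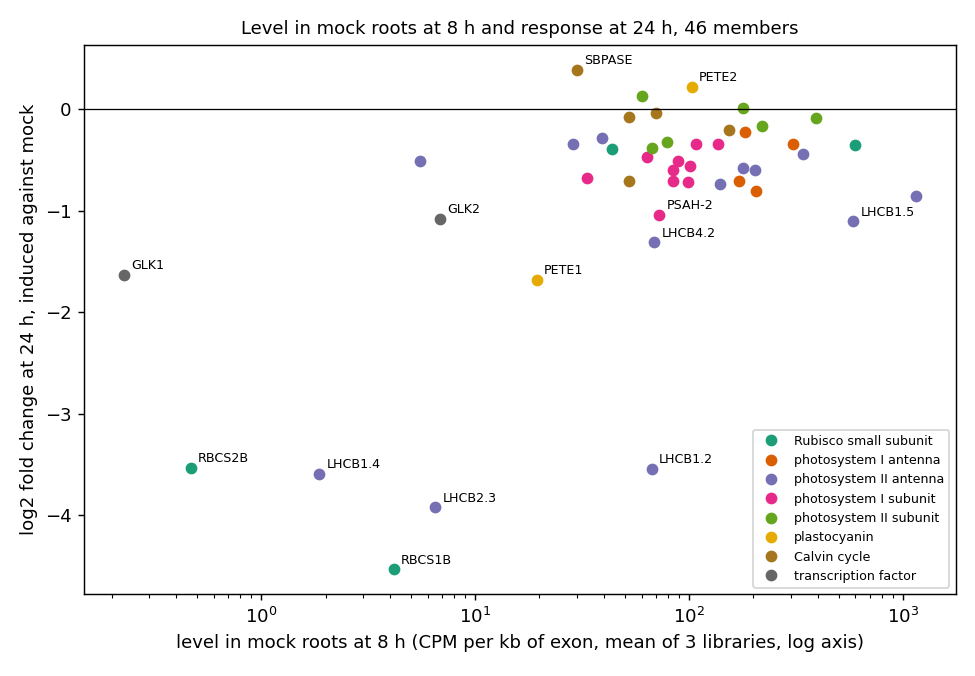
Mean level in mock 8 h roots (CPM per kb of exon, log axis) against the log2 fold change at 24 h for the 46 genes, coloured by role, with names where the log2 fold change was -1 or lower or above 0.2. RBCS1B, RBCS2B, LHCB1.4, LHCB2.3 and LHCB1.2 form the lower edge at -3.53 or below, over levels from 0.470 to 66.9 CPM per kb.

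Elements known from light-regulated promoters were common upstream of the set. In the 500 bases before the start codon, 45.7% of the 46 genes held a G-box (CACGTG), against 9.3% of 27443 genes. An I-box (GATAAG) occurred in 76.1% against 23.5%, and CCAATC in 56.5% against 21.2%. Both strands were searched and the window can include untranslated sequence. In the 250 bases before the outermost transcript start the shares were 19.6% against 6.5%, 28.3% against 12.3% and 28.3% against 10.2%. A match describes the sequence and does not show a bound site.

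Further genes of photosynthesis and chlorophyll synthesis, from lists chosen by function, were counted in the same way at 24 h. Of 5 other light-harvesting genes all 5 fell (34.0% of all genes fell), LHCB4.3 (AT2G40100) from 30.5 ± 2.99 to 5.63 ± 0.979 CPM, LHCA6 (AT1G19150) from 2.03 ± 0.378 to 0.510 ± 0.117 CPM and LHCA5 (AT1G45474) from 17.7 ± 1.16 to 10.6 ± 0.226 CPM. Of 14 other photosystem and electron transport genes 11 fell (34.0% of all genes fell) and 1 rose (38.3% of all genes rose). Their median log2 fold change was -0.30. The photosystem II subunit PSBX fell by 0.64, the cytochrome complex subunit PETC by 0.29 and the leaf ferredoxin FD2 by 0.36. Of 10 other Calvin cycle genes 4 fell, near the share of all genes, and 1 rose (38.3% of all genes rose), the aldolase FBA2 falling by 0.64 and TPI, a triose phosphate isomerase, rising by 0.31. Of 14 tested genes of chlorophyll synthesis 7 fell (34.0% of all genes fell) and 1 rose (38.3% of all genes rose). HEMA1 fell by 0.78, the magnesium chelatase subunit CHLH by 0.70 and its activator GUN4 by 0.94. At 8 h 4 of these 14 rose, among them PORB, a protochlorophyllide reductase, by 0.46, CAO by 0.33 and CHLD by 0.20, a share near that of all genes (22.3%).

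**Figure D5:**
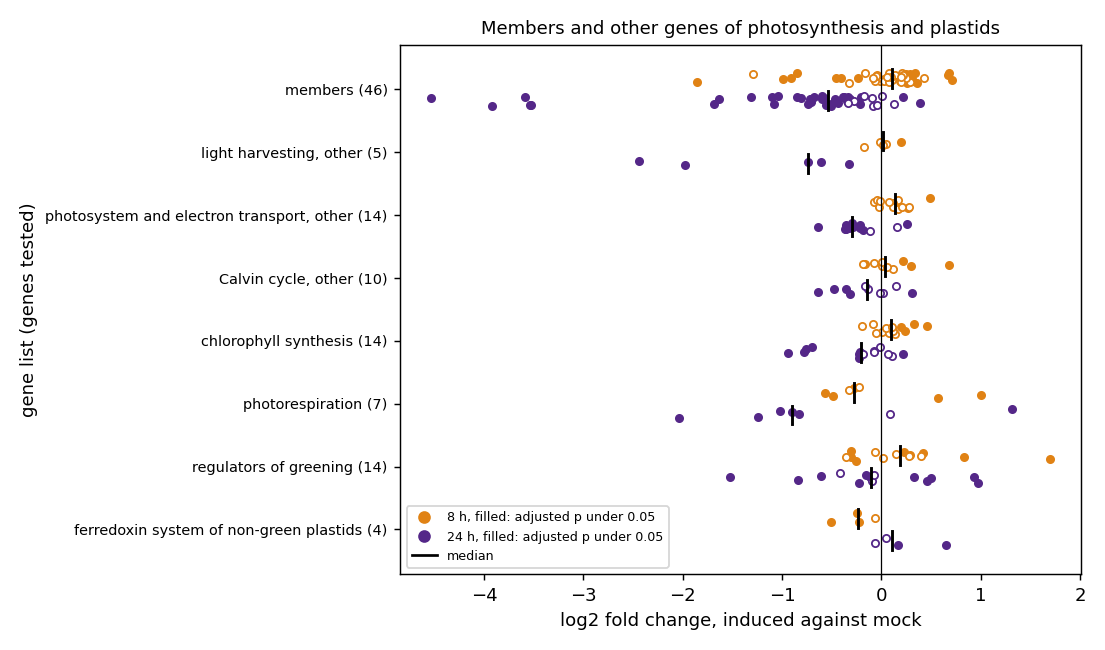
Log2 fold change, induced against mock, of the 46 genes and of 7 further lists (genes tested in brackets) at 8 h (orange) and 24 h (purple); filled points have an edgeR adjusted p under 0.05 and black bars are medians. At 24 h the medians were -0.54 for the 46 genes, -0.74 for the other light-harvesting genes, -0.30 for photosystem and electron transport and -0.20 for chlorophyll synthesis.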

How the data were processed

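RNA sequencing libraries from 12 root samples were analysed. Per the labels' protocols, RNA was extracted using the GeneJET Plant kit, and the library kit was TruSeq Stranded Total RNA. The deposited files hold raw gene counts for 34262 loci, 1 file per sample, with locus coordinates, per the file headers, on TAIR10 per the submitters' processing notes. How reads were aligned and counted, with or without strand, is not given in the sources used here. Of the loci matched to RefSeq TAIR10.1, 99.95% had the same coordinates, so sequences and exon lengths were taken from that genome.

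The deposited counts were tested with edgeR 4.0.16 in R 4.3.3 by quasi-likelihood (TMM scaling, filterByExpr, 1 coefficient per group over 12 libraries), with Benjamini-Hochberg adjustment over 21439 genes and calls at 0.05. Rose and fell are used for called genes. SE is the absolute log2 fold change divided by the square root of F. CPM used TMM-scaled library sizes. The contrasts were induced against mock at each time, their difference, and the change in mock roots between 8 h and 24 h. The test was checked on simulated data. The alternatives were DESeq2 1.42.0, other scalings and filters, fits of fewer libraries, a replicate block and summed close copies. The 46 genes and all lists were chosen with earlier results of these data known, and no list was tested as a list. All 46 genes could be named. Calls under the alternatives were recomputed for all 46 genes. Log2 fold changes under all settings were followed for the GLK and RBCS genes and, per induction contrast, the 8 called genes with the smallest adjusted p. Of each further list up to 3 called genes per contrast were named in order of adjusted p. KAT1 and SPCH were singled out after their values were seen.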

Additional observations from a re-analysis of the deposited data

Results flagged for a closer look

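For 13 of the genes followed under all settings, the response to induction differed between 24 h and 8 h, by edgeR's quasi-likelihood test of the difference itself with adjusted p under 0.05. Over all genes tested, the 24 h response was lower for 22.6% and higher for 18.2%. Apart from the GLK and RBCS genes, those followed had the smallest adjusted p in an induction contrast of these data. That choice can favour differences between times, so the number 13 is a description only. The other genes followed were GLK1, RBCS2B, SBPASE and PETE2, with no called difference (edgeR adjusted p = 0.751, 0.257, 0.441 and 0.452). The difference, in log2 units at 24 h minus 8 h, was -3.68 for RBCS1B, -3.21 for LHCB1.2, -2.94 for LHCB2.3 and -2.68 for LHCB1.4. These are the copies that lost most at 24 h. It was -1.31 for LHCB4.2, -1.22 for PETE1, -0.80 for PSAH-2 and -0.67 for GLK2. In RBCS3B (-1.08), RBCS1A (-0.64) and GAPA (-0.50) a rise at 8 h was followed by a fall at 24 h. In LHCB2.1 (-0.95) and GAPB (-0.33) a rise at 8 h was followed by a 24 h value that missed the test, and the GAPB difference had an adjusted p of 0.0548 without induced 8 h replicate 1 (0.00247 to 0.0548 over all alternatives).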

How the results depend on the processing

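The 24 h result was firmer than that at 8 h: 31 to 39 of the 46 genes fell across the alternatives, leaving out 1 library at a time included. The difference between times was lower for 36 to 41 genes. With close copies summed, which leaves 35 entries, 28 entries fell at 24 h and 30 had a lower response at 24 h than at 8 h. At 8 h the number that rose went from 12 to 20 with total library size alone and lay between 9 and 21 when 1 library was left out, 21 being without induced 8 h replicate 3. The number that fell was 3 of the 35 entries with close copies summed, against 7 of the 46 genes, and it lay between 4 and 7 when 1 library was left out, 4 being without mock 8 h replicate 3. Total library size moved the median of all genes from 0.02 to 0.116 at 8 h and from 0.058 to 0.2 at 24 h. With scaling, 12 gene values changed sign, all of them uncalled in the main scaling. Shares of all genes called under the alternatives are not given here, so these counts describe the set alone. Of 968 values for named genes under alternatives, 934 kept their call, 25 lost it, 9 gained it and 0 reversed.

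Whether replicate numbers pair the samples could not be decided. Over all genes tested, deviations of same-numbered mock and induced libraries correlated at 0.171, -0.004 and 0.035 at 8 h. At 24 h these correlations were 0.253, 0.059 and 0.121. Those of differently numbered libraries ran from -0.15 to 0.11 at 8 h and from -0.266 to 0.132 at 24 h. With the replicate number as a block 18 genes rose and 9 fell at 8 h, 2 rose and 39 fell at 24 h, and 40 had a lower response at 24 h. LHCB2.1 was then called higher in mock roots at 24 h than at 8 h, the number called there going from 0 to 1. Depth limits RBCS2B and GLK1, each at no more than 22 counts per library.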

Other observations

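Genes tied to photosynthesis in other ways did not move as 1 block at 24 h. In photorespiration, which recycles the product of Rubisco's oxygenase reaction, 5 of 7 genes fell (34.0% of all genes fell) and 1 rose (38.3% of all genes rose). SHM1 (AT4G37930), the mitochondrial serine hydroxymethyltransferase, fell from 263 ± 18.9 to 141 ± 4.38 CPM (SD, n = 3), and GLDT (AT1G11860), of the glycine decarboxylase complex, from 87.9 ± 2.16 to 49.4 ± 1.42 CPM. The catalase gene CAT2 (AT4G35090) rose from 152 ± 5.99 to 378 ± 12.2 CPM. Catalase also removes hydrogen peroxide outside photorespiration.

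Among 14 tested regulators of greening, 6 fell and 5 rose, shares near those of all genes. HY5 (AT5G11260), an activator of light-responsive genes, fell from 27.6 ± 5.80 to 9.64 ± 0.966 CPM (log2 fold change -1.52, SE 0.152, edgeR adjusted p = 1.82e-06). PIF3 (AT1G09530), a repressor of greening in the dark, rose from 11.9 ± 0.919 to 23.3 ± 1.16 CPM, and had risen at 8 h from 12.4 ± 0.547 to 21.9 ± 0.772 CPM. The photoreceptor gene PHYA (AT1G09570) rose from 200 ± 2.31 to 283 ± 2.09 CPM. A list of 4 genes held FD3, RFNR1 and RFNR2 of the ferredoxin system of non-green plastids and, outside that system, the NADH-dependent glutamate synthase GLT1 (AT5G53460). Of these 4 genes 0 fell and 2 rose at 24 h (38.3% of all genes rose). GLT1 rose from 1188 ± 139 to 1867 ± 48.3 CPM, and the root ferredoxin FD3 (AT2G27510) from 110.0 ± 3.70 to 124 ± 5.68 CPM. At 8 h 3 of the 4 had fallen (23.1% of all genes fell), RFNR2 (AT1G30510) by 0.51, FD3 by 0.23 and RFNR1 (AT4G05390) by 0.25 on the log2 scale.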
